A study of Mus musculus with 84 samples.

Results

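H3K27ac was compared in adipocyte nuclei of mice that had lost weight after 12 weeks of high-fat diet (HC) and of age-matched mice that had eaten chow throughout (CC_s). The comparison rested on 5 peak lists, 3 of HC (replicates 1 to 3) and 2 of CC_s (replicates 1 and 2), out of 21 H3K27ac lists and 84 lists of the series in all; CC_s replicate 3 of this mark was not analysed here. All the mice were male AdipoERCre x NuTRAP animals, in which tamoxifen, given by gavage before the diets began, switches on a Cre recombinase driven by the adiponectin gene and so labels adipocyte nuclei with biotin. HC mice were fed high-fat diet for 12 weeks and then standard chow for 8 weeks, CC_s mice received low-fat chow and then standard chow, and both groups were taken at 26 weeks of age. Labelled nuclei were captured from snap-frozen epididymal fat for CUT&Tag, where an antibody guides a transposase to the marked histone so that nearby DNA is cut and sequenced. The labels call the replicates biological. Other mice of the series served to look at the same sites again, namely obese H mice and their chow controls C (18 weeks old, 12 weeks of high-fat diet in H), obese HH mice and controls CC_l (31 weeks old, 25 weeks of high-fat diet in HH), and weight-loss HHC mice and controls CCC (39 weeks old, 25 weeks of high-fat diet and then 8 weeks of chow in HHC).

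Acetylation of lysine 27 on histone H3 is placed by coactivators such as p300 and CBP and lies at active promoters and enhancers. In fat cells the mark is dense around genes of lipid storage and hormone secretion, where factors such as PPARG and the C/EBP proteins bind, and STAT5 acts there downstream of growth hormone. AP-1, a dimer of FOS, JUN and related proteins, binds enhancers that respond to stress and inflammatory signals.

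A library marked a site where a peak touched it by 1 bp or more. Promoters reached 2000 bp up- and downstream of each annotated start of 21851 protein-coding genes, and the remaining sites were 59399 merged H3K27ac regions outside those windows, of which 23577 held a peak in at least 1 of the 5 libraries. A site was called gained when marked in 3 of 3 HC and 0 of 2 CC_s libraries, and lost in the reverse case. With 3 libraries against 2, an exact permutation test cannot give a p below 0.1, so a call describes these libraries and carries no p. The lists give no read totals, so depth is unknown and a site without a peak is a site under that library's threshold, not one shown to lack acetylation.

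HC replicate 3 stood apart from the other 4 libraries. Its list had peaks at 10 of 13 promoters of endothelial markers, where the other 4 libraries had 0, and at 11 of 18 promoters of macrophage markers, where the others had 1 to 3. Ptprc, Adgre1, Csf1r and Spi1 among the macrophage genes and Pecam1, Cdh5, Tek and Tie1 among the endothelial genes were marked in HC replicate 3 and in no other of the 5 libraries, whereas Itgam, Mrc1, Vwf, Kdr and Flt1 were marked in none of the 5. Adipocyte markers were marked at 12 of 15 promoters in HC replicate 3 and at 15 of 15 in each of the other 4, with Lep, Retn and Slc2a4 missing. When libraries were cut to equal numbers of their strongest peaks, the contrast was smaller for endothelial and macrophage markers and larger for adipocyte markers. HC replicate 3 then had peaks at 3 of 13 endothelial, 6 of 18 macrophage and 9 of 15 adipocyte promoters. The other 4 libraries had 0, 1 to 3 and 15 in the same order. The adipocyte label thus matched its defining markers in 4 libraries and less completely in HC replicate 3. In nuclei from a tissue, more nuclei of another cell type and more signal per nucleus cannot be told apart. A gained site had to be marked in all 3 HC libraries, so a site found in HC replicate 3 alone could not be called gained.

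Peak number did not separate the groups. HC libraries held 15158, 22078 and 37143 peaks and CC_s libraries 17361 and 23789, a mean difference of 0.19 on the log2 scale (exact permutation p = 0.8, two-sided). Peaks were narrower in every HC library. Their median width was 672, 906 and 813 bp in HC against 1232 and 1494 bp in CC_s, a difference of -0.78 on the log2 scale (exact permutation p = 0.1, the smallest this design allows). In the younger mice, H widths (477 to 801 bp) also lay below C widths (1372 to 1765 bp). The older groups overlapped, with 1613 to 2132 bp in HH against 1868 and 1893 bp in CC_l, and 1909 to 2245 bp in HHC against 1199 and 2177 bp in CCC. The share of peaks at promoters was 37.57% ± 1.14 in HC (SD, n = 3) and 37% ± 0.424 in CC_s (SD, n = 2), a difference smaller than the spread of HC. A wider peak reaches more sites, and peak width moved together with the losses described here. Its part in them was not tested.

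**Figure D1:**
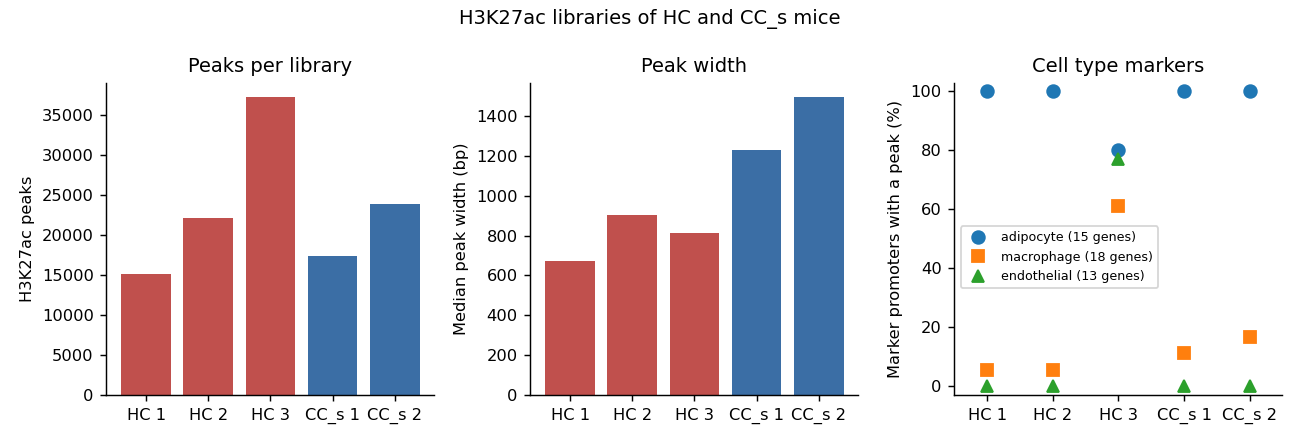
Peaks per library (left), median peak width in bp (middle) and the percentage of promoters of adipocyte, macrophage and endothelial markers with a peak (right) in the 3 HC and 2 CC_s H3K27ac libraries. Every HC library has narrower peaks than every CC_s library, and HC replicate 3 alone has peaks at endothelial markers.

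With all listed peaks fewer sites were gained than lost after weight loss. Of 21851 promoters, 65 were gained in HC (0.297%) and 109 were lost (0.499%). Of the 23577 regions outside promoters, 84 were gained (0.356%) and 882 were lost (3.74%), so that gains made up 37.4% of the changed promoters and 8.7% of the changed regions. When every library was reduced to its 15158 strongest peaks by total signal, 136 promoters were gained (0.622%) and 153 lost (0.7%), and 56 regions were gained (0.238%) and 688 lost (2.92%). With equal peak numbers gains made up 47.1% of the changed promoters and 7.53% of the changed regions. The balance at promoters was not stable. Gains outnumbered losses there without HC replicate 1 (423 against 147), without CC_s replicate 2 (502 against 145) and, narrowly, with the upper 75% of peaks (87 against 83), while at regions losses outnumbered gains in each of these. Promoters and regions both turned round when the libraries were cut to an equal covered length of 11.6 Mb, with 743 promoters gained and 14 lost, and 148 regions gained and 25 lost. Equal covered length keeps fewer peaks of a library with wide peaks. Without HC replicate 3, 79 promoters were gained and 485 lost, and 288 regions were gained and 1166 lost. Of the sites called with all peaks, 27 gained and 52 lost promoters and 18 gained and 388 lost regions were also called with equal peak numbers, and the strongest of these are described below.

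**Figure D2:**
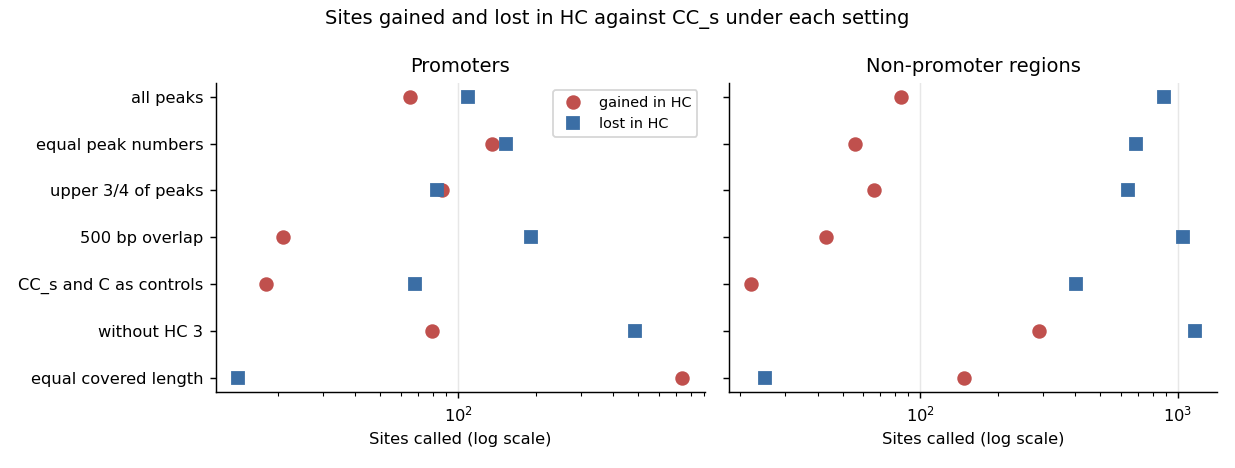
Number of promoters (left) and non-promoter regions (right) called gained or lost in HC against CC_s under 7 settings, on a log scale. Losses outnumber gains in regions under every setting shown except equal covered length, where gains outnumber losses at promoters and regions alike.

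The lost regions shared a sequence feature that the calls did not use. A window of 300 bp was placed on the highest-coverage stretch of the strongest peak in each region and searched for 12 motifs. The STAT motif (TTCNNNGAA, the same on both strands), bound by STAT5 and other STAT proteins, was present in 289 of 882 lost regions (32.8%), in 6 of 84 gained regions (7.14%) and in 10.9% of all 23577 regions. It was present in 36.9% of the 388 lost regions that were also called with equal peak numbers, and in 30.3% of the 1166 regions lost without HC replicate 3. Among the strongest lost regions, 4 of the first 6 held it. Windows of 3 of them are shown from the GRCm38 reference, plus strand, with the match in capitals, followed by that of a further lost region in an intron of Fam78b, which was chosen after its values were seen.

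Region in Slit3, chr11:35626637-35626936: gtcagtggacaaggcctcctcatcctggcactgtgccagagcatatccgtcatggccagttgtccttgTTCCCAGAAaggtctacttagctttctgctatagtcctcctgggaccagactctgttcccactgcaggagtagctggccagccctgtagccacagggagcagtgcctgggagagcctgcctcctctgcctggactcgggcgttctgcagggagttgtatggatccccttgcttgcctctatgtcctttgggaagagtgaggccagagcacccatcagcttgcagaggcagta
Intergenic region nearest Vstm2b, chr7:40262221-40262520: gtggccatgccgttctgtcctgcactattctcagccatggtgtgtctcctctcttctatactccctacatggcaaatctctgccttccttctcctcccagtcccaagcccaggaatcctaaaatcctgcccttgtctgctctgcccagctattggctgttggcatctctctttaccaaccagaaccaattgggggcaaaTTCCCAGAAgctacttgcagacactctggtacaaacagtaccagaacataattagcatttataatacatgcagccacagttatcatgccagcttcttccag
Region in an intron of Thada, chr17:84320432-84320731: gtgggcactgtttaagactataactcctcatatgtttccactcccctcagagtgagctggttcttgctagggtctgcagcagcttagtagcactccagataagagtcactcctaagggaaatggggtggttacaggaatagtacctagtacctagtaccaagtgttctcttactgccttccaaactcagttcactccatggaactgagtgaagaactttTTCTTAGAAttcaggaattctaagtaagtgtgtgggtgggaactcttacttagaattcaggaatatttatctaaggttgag
Region in an intron of Fam78b, chr1:167042558-167042857: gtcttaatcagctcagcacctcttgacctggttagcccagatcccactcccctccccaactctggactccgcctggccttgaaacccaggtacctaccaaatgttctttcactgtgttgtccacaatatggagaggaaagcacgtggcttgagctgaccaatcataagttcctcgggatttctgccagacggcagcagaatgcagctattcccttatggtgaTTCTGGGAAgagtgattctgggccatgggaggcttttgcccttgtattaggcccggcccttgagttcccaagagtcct

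The share of regions with the STAT motif fell with the number of HC libraries that kept a peak. For this comparison the windows of all 6418 regions marked in 2 of 2 CC_s libraries were placed by CC_s peaks alone. The motif was present in 32.8% of those marked in 0 of 3 HC libraries, 18.3% of 1243 marked in 1, 13.4% of 2242 marked in 2 and 11.2% of 2051 marked in 3. The same TTC and GAA letters at another distance did not follow this order. With 2 bases between TTC and GAA the shares were 10.9, 9.01, 10 and 8.97%, with 4 bases 9.98, 10.5, 9.32 and 7.26%, and with 5 bases 7.82, 9.65, 8.43 and 8%. The match lay a median of 49 bp from the window's centre in lost regions and 69 bp over all regions with a match. GC content was similar, with a median of 49.2% in lost regions and 48.7% over all regions. The spacings and classes were added after the first shares were seen, and these shares are a description without a test.

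**Figure D3:**
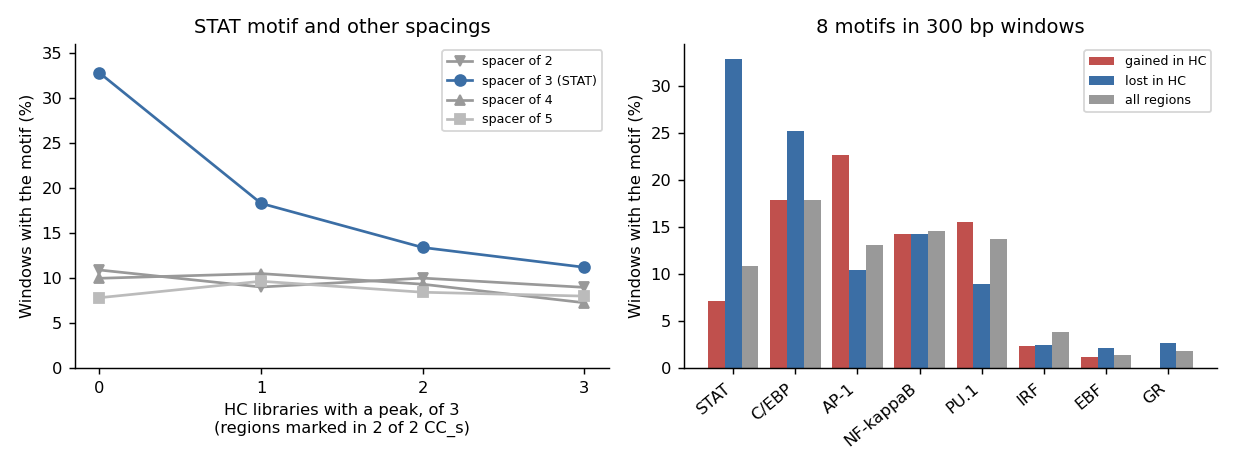
Left, percentage of 300 bp windows with TTC and GAA separated by 2, 3 (STAT motif), 4 or 5 bases, among regions marked in both CC_s libraries, by the number of HC libraries with a peak. Right, percentage of windows with each of 8 motifs in gained, lost and all non-promoter regions (GR, glucocorticoid receptor). The STAT motif is most frequent in regions without a peak in any HC library (32.8%).

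In other mice the STAT regions were also marked less often, in control as well as diet libraries. The 6418 regions were marked in both CC_s libraries by choice, and the share marked in each other library was taken for the 1048 regions with the motif and the 5370 without. The share with the motif minus the share without it was -18.5, -19.6 and -9.8 percentage points in the HC libraries and -18.3, -10.8 and -13.3 points in H, against -1.56, -2.57 and -16 points in C. The difference was -8.88, -10.7 and -7.03 points in HH against -2.14 and -1.84 in CC_l, and -5.99, -4.34 and -7.95 points in HHC against -0.873 and -6.55 in CCC. The HH libraries thus lay apart from CC_l, whereas C replicate 3 and CCC replicate 3 overlapped with the diet libraries. Nearly all of the regions were marked in CC_l, 96.3 and 96.9% with the motif and 98.4 and 98.8% without it. The shares were 98.6 and 99.4% in CCC replicate 1. Such shares leave little room for a difference. In HH they were 40.8, 82 and 87.1% with the motif and 49.7, 92.7 and 94.2% without it. The part of this ceiling in the gap was not tested. With equal peak numbers the differences were -4.73, -17.6 and -14.1 points in HH and -8.06 and -6.29 in CC_l, so these groups then overlapped as well.

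Other motifs differed less. C/EBP (TTGCNNAA) was present in 25.2% of lost regions, 17.9% of gained regions and 17.9% of all regions, but within the regions marked in both CC_s libraries its share was 25.2% where no HC library had a peak and 21.9 to 28.2% where 1 to 3 had one. AP-1 (TGANTCA) was present in 19 of 84 gained regions (22.6%), 10.4% of lost regions and 13.1% of all regions. With windows placed by HC peaks, regions marked in 3 of 3 HC libraries held AP-1 in 22.6% of cases where 0 CC_s libraries had a peak, 12.1% where 1 had and 13.3% where both had. PU.1 (GAGGAAG), a motif of a myeloid factor, was present in 15.5% of gained, 8.96% of lost and 13.7% of all regions. The CREB motif (TGACGTCA) and the longer NFI and PPARG:RXRA motifs were in none of these 84 gained and 882 lost windows and in 0.348%, 0.0551% and 0.11% of all regions. Motifs were searched on both strands, and a match is not shown to be a bound site. Windows of 2 gained regions, in an intron of Grk5 and overlapping an exon of Xylt1, were chosen after their values were seen and are shown with AP-1 matches in capitals (GRCm38, plus strand).

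Region in an intron of Grk5, chr19:60950545-60950844: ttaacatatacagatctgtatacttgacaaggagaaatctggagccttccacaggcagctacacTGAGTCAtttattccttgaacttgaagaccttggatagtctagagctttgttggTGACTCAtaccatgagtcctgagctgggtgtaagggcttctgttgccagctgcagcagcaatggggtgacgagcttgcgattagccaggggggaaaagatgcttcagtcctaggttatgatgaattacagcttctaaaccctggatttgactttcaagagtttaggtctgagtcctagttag
Region in Xylt1, chr7:117470502-117470801: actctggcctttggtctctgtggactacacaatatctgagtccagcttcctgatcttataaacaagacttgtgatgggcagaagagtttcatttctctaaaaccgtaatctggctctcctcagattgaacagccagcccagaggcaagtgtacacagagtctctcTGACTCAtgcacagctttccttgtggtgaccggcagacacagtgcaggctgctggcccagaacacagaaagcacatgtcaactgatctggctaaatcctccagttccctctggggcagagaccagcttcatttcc

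The strongest lost regions lay far from promoters. Below, strength is the percentile of a site's strongest peak among all peaks of its library by total signal, and n of n counts the libraries with a peak. The region in Slit3 (chr11:35621085-35629084, 8000 bp, overlapping an exon), a gene for a secreted guidance ligand, ranked at percentiles 97.9 and 96.2 in CC_s, had no peak in any HC or H library and was marked in 3 of 3 C libraries. Slit3 held 5 lost regions of 28 that had a peak in at least 1 of the 5 libraries, and 4 of the 5 were also called with equal peak numbers. Over all regions linked to a gene 3.43% were lost. The region in Gabbr2 (chr4:46813350-46818215) ranked at 95.6 and 96.3, the intergenic region nearest Vstm2b (chr7:40256542-40264958) at 96.6 and 93.6, and the intronic region of Thada (chr17:84316724-84326966) at 93.4 and 93.4. An intergenic region 70953 bp from the start of Lpl (chr8:68951444-68956916), the gene for lipoprotein lipase, which releases fatty acids from circulating triglyceride, ranked at 96.2 and 87.5 in CC_s. The Lpl promoter itself was marked in 5 of 5 libraries. These 5 regions were all marked in 2 or 3 of 3 C libraries and in 2 of 2 CC_l libraries. Among the other diet mice they were marked in 2 or 3 of 3 HH, 1 to 3 of 3 HHC and 0 to 2 of 3 H libraries. Those in Thada and nearest Lpl were marked in 2 of 3 H libraries. The regions were thus not unmarked in every diet group.

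A cluster of serpin genes on chromosome 12 held 3 of the lost sites, a grouping made after the values were seen. No share of the cluster's sites was taken. Over all sites 0.499% of promoters and 3.74% of regions were lost. The promoter of Serpina12, which encodes the adipokine vaspin, ranked at percentiles 72.9 and 89.2 in CC_s and had no peak in 3 of 3 HC and 3 of 3 H libraries. It was marked in 2 of 3 HH and 2 of 3 HHC libraries. The intergenic region nearest Serpina5 ranked at 86.7 and 90.5 in CC_s. The Serpina3i promoter, not among the genes taken by the naming rule and chosen after its values were seen, ranked at 11.8 and 44.3. It was not called with equal peak numbers. The 300 bases around the Serpina12 start are shown from RefSeq (GRCm38.p6, minus strand), with the first transcribed base in capitals.

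Serpina12 promoter, chr12:104044394-104044693: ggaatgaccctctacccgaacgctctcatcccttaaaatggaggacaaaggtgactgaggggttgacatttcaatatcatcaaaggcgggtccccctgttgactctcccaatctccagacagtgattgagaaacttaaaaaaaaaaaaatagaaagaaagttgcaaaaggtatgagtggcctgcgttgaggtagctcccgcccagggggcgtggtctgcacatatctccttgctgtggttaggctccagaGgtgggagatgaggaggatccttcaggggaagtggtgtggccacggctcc

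Lost regions had a greater median distance to a start site than regions in general. Of the 882, 34.6% lay in introns, 20.1% touched exons and 45.4% were intergenic, against 39.1, 18.8 and 42.1% of the 23577. Their median distance to a start site was 40951 bp, against 29449 bp. Of 17793 regions linked to a gene (overlapping it or within 20000 bp of it), 611 were lost (3.43%), at 520 genes. Gm20388 (5 of 52 regions), Slit3, Tenm4 (5 of 22) and Mapk4 (4 of 11) had the most. Among the 520 genes were Ghr, the growth hormone receptor, and Stat5a, which acts downstream of it. A lost region also lay 61022 bp from Igf1, a hormone gene induced by growth hormone. Ghr, Stat5a and Igf1 were picked after the values were seen, and their relation to the STAT motif was not tested. The region in Stat5a (chr11:100878281-100881967) ranked at 42.6 and 48.3 in CC_s, was marked in 2 of 3 C and 0 of 3 H libraries, and the Stat5a promoter was marked in 5 of 5 libraries.

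Gained regions were few and many were also marked in other controls. The strongest, nearest Galc (chr12:97061192-97061912) and nearest Gm8797 (chr3:5860320-5861099), carried peaks of the repressive mark H3K27me3 in 3 of 3 HC and 3 of 3 CC_s libraries as well, peaks of H3K4me1 and H3K4me3 in 3 of 3 HC and in 1 to 3 of 3 CC_s libraries, and were only 721 and 780 bp wide, so signal was present there in every mark. The region in Tec (chr5:72792166-72797461), a tyrosine kinase gene of blood cells, ranked at percentiles 64.4, 62 and 95.7 in HC, and that in Dock8 (chr19:25058580-25063152), an activator of CDC42 in immune cells, at 70.7, 84.4 and 63.5. Both were unmarked in 3 of 3 C libraries and marked in 3 of 3 HH and 3 of 3 HHC libraries. Both were also marked in 1 of 2 CCC libraries, and the Dock8 region in 1 of 2 CC_l. The Dock8 promoter, looked up after these values were seen, was gained too. Regions nearest Cep85l and in Sept11 were marked in 3 and 2 of 3 C libraries, so these regions were not unmarked in every control group. Adding the C libraries to the controls left 22 of 84 gained and 403 of 882 lost regions, and 18 of 65 gained and 68 of 109 lost promoters.

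The lost promoters included genes of adipocyte hormone signalling. Adra1d, the alpha-1D adrenergic receptor, ranked at percentiles 64.4 and 96.1 in CC_s, and Ptger3, the prostaglandin E2 receptor EP3 that restrains lipolysis, at 57.2 and 90.3. Ptges, the enzyme that makes prostaglandin E2, ranked at 14.5 and 78.6. Klb, the FGF21 co-receptor beta-klotho, ranked at 0.703 and 90.3 and was not called with equal peak numbers. Of these 4, Ptger3 was marked in 1 of 3 H libraries and the other 3 in 0 of 3, and all were marked in 3 of 3 C libraries. The older diet mice differed from H. Ptger3 was marked in 3 of 3 HH and 3 of 3 HHC libraries, Adra1d in 3 and 2, Klb in 2 and 1, and Ptges in 0 and 1. The list of prostaglandin enzymes and receptors had 2 of 26 promoters lost and 0 gained, and that of lipolysis and adrenergic signalling had 1 of 25 lost and 0 gained, against 0.499% lost over all promoters. Ptger3 stands in both lists, so these were losses of 2 genes.

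Matrix and growth factor promoters formed a further part of the losses. Col3a1, a fibrillar collagen that also marks progenitor cells, ranked at percentiles 37 and 41.1 in CC_s, and Adamts15, a matrix protease, at 35.1 and 67.7. Ogn (28.2 and 3.43), a small proteoglycan, Bmp1 (4.41 and 44), a procollagen protease, and Nog (11.1 and 23.5), an inhibitor of BMP ligands, were weaker and were not called with equal peak numbers. Wnt5b, a Wnt ligand, ranked at 62.8 and 39.1. Among growth factors, Angpt4, an angiopoietin, ranked at 49.8 and 85.3, and Gas6, a ligand of the TAM receptors, at 12.9 and 17.7, without a call at equal peak numbers. By list, 3 of 93 growth factor and receptor tyrosine kinase promoters were lost and 2 of 60 of the TGF-beta, BMP and activin list. So were 1 of 43 collagens, 1 of 67 Wnt pathway genes, 1 of 58 matrix proteases and inhibitors and 1 of 80 other matrix proteins. With all peaks none of these lists had a gained promoter, against 0.499% lost and 0.297% gained over all promoters. With equal peak numbers the losses were 3, 1, 1, 2, 2 and 2 in the same order (0.7% of all promoters), and the genes changed in part. Smad4 of the TGF-beta list, Dvl1 of the Wnt list and Ccn1 of the other matrix proteins were then gained (0.622% of all promoters). Bmpr1a was lost in place of Nog and Bmp1, Loxl1 and Aspn in place of Ogn, and Pdgfc and Met in place of Klb and Gas6. Htra1 and Axin2 were lost beside Adamts15 and Wnt5b.

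The strongest lost promoters belonged to genes of many kinds. Plekhg6, a guanine nucleotide exchange factor, ranked at percentiles 96.9 and 97.5 in CC_s, the highest mean of the lost promoters that held with equal peak numbers, and was marked in 3 of 3 C libraries and 1 of 3 H. It was also marked in 3 of 3 HH and 3 of 3 HHC libraries. Lrfn4, an adhesion protein, ranked at 80.5 and 96.2, Tmprss13, a membrane serine protease, at 81.2 and 92.3, and C130050O18Rik at 80.7 and 85.9. Transcriptional regulators were among them. Nfib, a nuclear factor I protein, ranked at 85.4 and 67.8 and Trp63 at 54.2 and 94.5, and both were marked in 3 of 3 H libraries. Hoxb3 ranked at 35.3 and 87.7 and Zfp957 at 58.7 and 68.2.

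Of 385 solute carrier promoters 5 were lost and 0 gained, against 0.499% lost and 0.297% gained over all promoters. With equal peak numbers 5 were lost and 2 gained (Slc43a3 and Slc25a28). Among the 5 lost with all peaks were Slc36a2 (percentiles 66.3 and 39.6 in CC_s), a proton-coupled amino acid transporter, Slc43a1 (15.2 and 89.3), Slc25a35 (35 and 71.4) and Slc17a1 (21.2 and 15.3). Gstp1, a glutathione transferase, ranked at 30.8 and 63.9. Maob, a monoamine oxidase, ranked at 39.2 and 55.4 and was unmarked in 3 of 3 H libraries. It was marked in 2 of 3 HH and 1 of 3 HHC libraries. Further lost members of the lists were Ccl7, a monocyte chemokine, and Olfr9, which held with equal peak numbers, and Il17re, Olfr71, Zfp418, Rab35, Rpl14, Pcdhgc5 and Nat8f7, which did not.

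The gained promoters held few genes specific to fat cells. Maz, a zinc finger factor, ranked at percentiles 77.9, 56.5 and 86 in HC, and Mid1, a ubiquitin ligase of microtubules, at 41.4, 78.5 and 97. Some of them act in cell division. Knl1, a kinetochore protein, ranked at 74.9, 50.4 and 73.6, Mzt1 and Bora, which share a start region and act on microtubule nucleation and mitotic kinases, at 47.2, 55.8 and 92.1, and Rttn, a centriole protein, at 28.1, 73.3 and 85.6. Mtmr2, a lipid phosphatase, Adnp, a chromatin protein, and Rasal2, a RAS regulator, were also among the strongest. All of the promoters named here were also marked in 2 or 3 of 3 C libraries. The cell cycle list had 15, 24 and 43 of 54 promoters marked in HC and 17 and 26 in CC_s, with 0 gained and 0 lost, so its highest count was in HC replicate 3.

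Promoters gained against CC_s and unmarked in C included members of the AP-1 list. Fosb, a subunit of AP-1, ranked at percentiles 32.1, 34.5 and 82.4 in HC, had a peak in 0 of 2 CC_s, 0 of 3 C and 0 of 3 H libraries, and was marked in 3 of 3 HH and 3 of 3 HHC libraries but also in 2 of 2 CC_l. Maff, a small MAF protein, ranked at 37.4, 7.08 and 57.8 with the same counts in C and H. It was not called with equal peak numbers. The list of AP-1 and ATF factors had 2 of 23 promoters gained and 0 lost, and Fosb alone held with equal peak numbers (over all promoters 0.297% were gained). Regions linked to the list went the other way. Of 33, 0 were gained and 3 lost (9.09%, against 3.43% of all linked regions). With equal peak numbers 0 of these 33 were gained and 1 was lost (492 of 17793 linked regions in all). Irf7, the factor that drives interferon genes, ranked at 24.5, 63.3 and 84.2 and was marked in 2 of 3 C libraries. The interferon-induced list had 17, 31 and 47 of 56 promoters marked in HC and 24 and 27 in CC_s, so HC replicate 1 lay below both controls and HC replicate 3 above them. Rab11fip5, an effector of RAB11 (30, 45.8 and 78.3), was unmarked in C and H. Il22ra2, a soluble receptor for interleukin 22, Zfp512, Zfp346, Dtx4 and Pcdh1 were gained with all peaks and not with equal peak numbers. The 300 bases around the Fosb start (RefSeq, GRCm38.p6, minus strand) follow, with the first transcribed base in capitals.

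Fosb promoter, chr7:19309996-19310295: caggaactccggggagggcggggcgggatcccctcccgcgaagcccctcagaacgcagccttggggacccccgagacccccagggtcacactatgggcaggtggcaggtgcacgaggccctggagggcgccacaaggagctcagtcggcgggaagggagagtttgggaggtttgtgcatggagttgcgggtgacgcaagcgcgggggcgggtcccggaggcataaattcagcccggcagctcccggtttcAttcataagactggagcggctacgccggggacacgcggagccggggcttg

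Promoters of genes that the study names, for histone marks or for expression, were mostly not called. The study compared counts at promoters and described their state by H3K4me3, H3K27ac and H3K27me3 together. A peak call of H3K27ac alone in every library is a different measure. Of 10, Maob was lost and 9 were neither gained nor lost. Gpam, which begins triglyceride synthesis, was marked in 2 of 2 CC_s libraries at percentiles 97.9 and 97, in HC replicates 2 and 3 at 86.2 and 29.9, and not in HC replicate 1. Acacb, an acetyl-CoA carboxylase, was marked in 2 of 2 CC_s (91.3 and 99.8) and in HC replicates 1 and 2 (75.4 and 85.4). Cyp2e1, a cytochrome P450, was marked in 2 of 2 CC_s (89.1 and 97.2) and in HC replicate 2 alone (52.4). Tyrobp, Icam1 and Runx2 were marked in 0 of 2 CC_s and in HC replicate 3 alone, the library with macrophage and endothelial promoters. Tmsb4x was marked in 0 of 2 CC_s and in HC replicates 1 and 3, Ctsd in 5 of 5 and Lyz2 in 0 of 5. H3K4me3 peaks separated the groups at Icam1, in 3 of 3 HC and 0 of 3 CC_s libraries, and at Cyp2e1, in 0 of 3 and 3 of 3. Gpam, Acacb and Ctsd had H3K4me3 in 3 of 3 libraries of both groups. The HC and CC_s counts were 3 and 1 for Runx2, 3 and 2 for Tmsb4x, 1 and 0 for Tyrobp, 1 and 1 for Maob and 0 and 0 for Lyz2.

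A pair of lists of adipocyte functions had fewer marked promoters in every HC library than in either CC_s library, with 1 called loss between them. The pair was picked from all the gene lists after their values were seen. With 3 libraries against 2 and many lists, such a separation can arise by chance, and it was not tested. The list of de novo lipogenesis had 13, 17 and 16 of 23 promoters marked in HC against 19 and 20 in CC_s, and that of lipolysis and adrenergic signalling had 16, 19 and 15 of 25 against 20 and 21, so in both the groups did not overlap. Over all promoters the counts were 5514, 7204 and 10671 in HC and 6343 and 8824 in CC_s, and overlapped. Fasn, fatty acid synthase, and Elovl6, a fatty acid elongase, were marked in 2 of 2 CC_s libraries and, in HC, in replicate 3 alone. Adipokine promoters were marked at 13, 15 and 10 of 20 in HC and 14 and 16 in CC_s, and those of the circadian clock at 12, 12 and 18 of 23 and 15 and 21, which overlapped. Histone genes were marked at 21, 35 and 62 of 67 promoters against 23 and 25, with HC replicate 3 again highest, and the respiratory chain overlapped at 28, 33 and 40 of 43 against 30 and 37. Leukocyte adhesion genes were marked at 3, 7 and 25 of 34 promoters in HC and at 5 and 6 in CC_s, the high value again being that of HC replicate 3.

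Levels within the marked promoters were then compared by rank. Signal is not comparable between these libraries, so each of the 4046 promoters marked in 5 of 5 libraries was ranked by total signal within its library, from 0 to 100. All 3 HC ranks lay above both CC_s ranks at 551 promoters (13.6%) and below both at 425 (10.5%). Of 15 adipogenic transcription factors, 7 lay below and 0 above, namely Pparg, Cebpb, Ebf2, Klf15, Rxra, Zfp423 and Esrra. The list's median rank was 67.6, 67.7 and 31.8 in HC and 90.1 and 91.5 in CC_s. Pparg, the master factor of fat cells, ranked at 47.5, 64.2 and 19 in HC and 95.8 and 78.2 in CC_s, Cebpb at 42.6, 11.9 and 23.5 against 93.3 and 95.4, and Ebf2 at 23.4, 19.1 and 3.08 against 93.6 and 93.1. Ranked by peak height in place of total signal, 6 of the 15 lay below and 0 above (10.4% of all promoters lay below), of which Ebf2, Klf15 and Rxra were among the 7 by total signal. Pparg (20.9, 57.9 and 20.8 against 67.2 and 32.3) and Cebpb (7.85, 31.7 and 16.5 against 29.1 and 53.2) overlapped between the groups by height. Without HC replicate 3 the count by total signal was again 7 of 15 below, where the share of all promoters was 17.7%. Total signal is summed over a peak's width, and the Pparg peak was 1014, 1887 and 875 bp wide in HC and 6008 and 3855 bp in CC_s.

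Other lists ranged on both sides. Of 9 homeobox and lineage factors, 6 lay below and 0 above (Hoxb4, Hoxc5, Hoxc6, Gata6 and Meis2 among them), with median ranks of 72.2, 57.9 and 12.1 in HC and 89.1 and 92.2 in CC_s. Of 10 genes of de novo lipogenesis, 4 lay below and 0 above, with median ranks of 57.6, 29 and 28.4 against 67.8 and 72.7, but by peak height 1 lay below and 2 above. The interferon-induced list had 4 of 12 above (Ifit3, Ifitm2, Usp18 and Stat2) and 0 below, with median ranks of 56.2, 46.8 and 60.7 against 30.3 and 36.7. By peak height 2 were above and 0 below. The 12 adipocyte markers marked in all 5 libraries had median ranks of 97.8 and 96.9 in HC replicates 1 and 2, 41.7 in HC replicate 3, and 98.4 and 97.5 in CC_s. Of these 12, 4 lay below both CC_s ranks in all 3 HC libraries (Lipe, Pnpla2, Pparg and Fabp4) and 0 above. Without HC replicate 3 the same 4 lay below and 1 above (Acsl1). By peak height 1 of the 12 lay below. The peak of Pnpla2, the first lipase of lipolysis, was 1453, 3913 and 2030 bp wide in HC against 9731 and 19386 bp in CC_s. That of the adiponectin gene Adipoq overlapped, with 11509, 12392 and 695 bp against 11522 and 16057 bp. Peaks in general were narrower in every HC library, as given above, so a smaller width is not particular to these promoters. The lists shown by rank were picked after their values were seen.

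**Figure D4:**
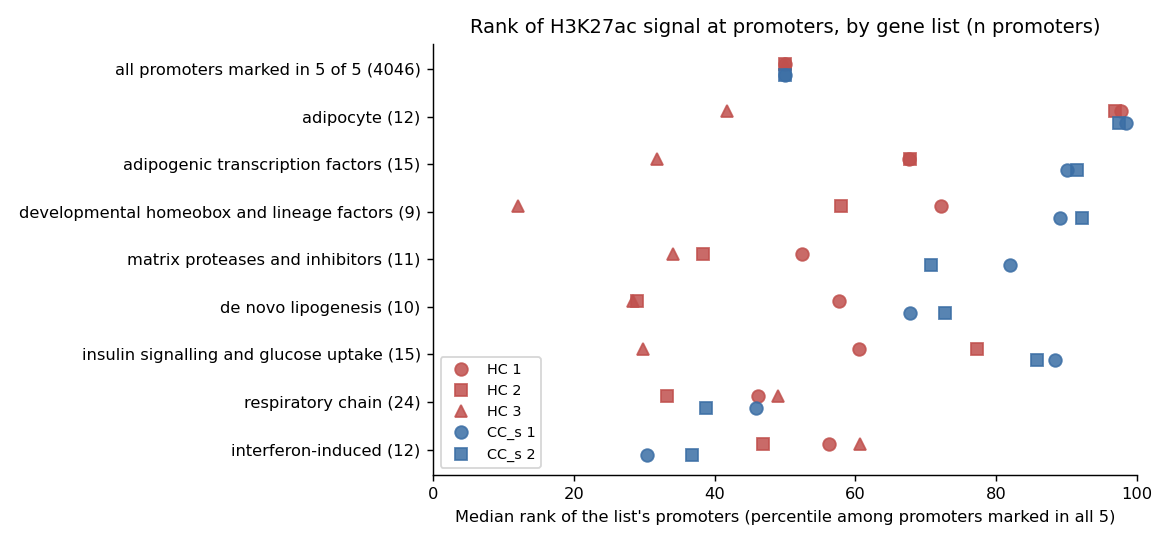
Median rank of H3K27ac total signal within each library, in percentiles among the 4046 promoters marked in all 5 libraries, for 8 gene lists and for all promoters (n promoters in parentheses). Points are libraries, and adipogenic transcription factors rank lower in all 3 HC libraries (31.8 to 67.7) than in both CC_s libraries (90.1 and 91.5).

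The sites were then examined in mice that had not been used to choose them, to ask whether they differed with diet there too. For each library the share of lost sites with a peak was subtracted from the share of gained sites with a peak, and the difference between diet and control libraries was averaged over H against C, HH against CC_l and HHC against CCC. This shift was 42.5 percentage points for promoters and 51.9 points for regions (exact permutation within the 3 comparisons, two-sided, p = 0.001 for both). With equal peak numbers it was 42.3 points (exact permutation p = 0.0025) and 68.2 points (exact permutation p = 0.0005, the smallest these permutations can give). With sites chosen without HC replicate 3 it was 19 points for promoters and 32 points for regions (exact permutation p = 0.0005 for both).

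Averaged over the 3 comparisons the lost sites had the larger diet difference, but not in each of them. Lost promoters were marked at 21.4% ± 5.9 (SD, n = 3) in H against 80.7% ± 8.89 (SD, n = 3) in C, at 75.2% ± 16.7 (n = 3) in HH against 98.2% ± 1.34 (n = 2) in CC_l, and at 69.7% ± 22.3 (n = 3) in HHC against 69.7% ± 42.9 (n = 2) in CCC. Lost regions were marked at 15.5% ± 6.28 in H against 71.3% ± 11.5 in C, at 49.2% ± 26.9 in HH against 91.3% ± 1.63 in CC_l, and at 45.2% ± 29.2 in HHC against 73.2% ± 34.4 in CCC. The mean diet difference of lost sites was -27.4 points for promoters (exact permutation p = 0.0375) and -42 points for regions (exact permutation p = 0.0045). The H and C libraries, and the HH and CC_l libraries, did not overlap for either kind of lost site, whereas HHC and CCC did. At promoters the shift in HHC against CCC came with no difference in lost sites and 41.3 points in gained sites, while gained sites differed by -2.05 points between H and C and by 6.15 points between HH and CC_l. Gained sites showed a mean of 15.1 points for promoters (exact permutation p = 0.278) and 9.85 points for regions (exact permutation p = 0.416) with all peaks, and 19.4 points (exact permutation p = 0.0435) and 23 points (exact permutation p = 0.0025) with equal peak numbers.

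Peak width and other cell types moved with this shift in part of the mice. Over all promoters, 30% ± 9.15 (SD, n = 3) were marked in H and 37.4% ± 1.3 (SD, n = 3) in C, against 49.7% in HH and 50.2% in CC_l, and 52.9% in HHC and 34.2% in CCC. Over all regions the shares were 12% in H and 18% in C, 29.8% in HH and 30.2% in CC_l, and 34.9% in HHC and 21.9% in CCC. Peaks were narrower in H than in C, and the widths of the older groups overlapped, as given above. Adipocyte marker promoters were marked at 13 to 14 of 15 in H, 11 to 15 in HH and 12 to 15 in HHC, against 15 of 15 in every control library. Endothelial marker promoters were marked at 1 to 6 of 13 in H against 1 in C, at 3 to 11 in HH against 2 to 4 in CC_l, and at 5 to 7 in HHC against 0 to 2 in CCC. Of 18 macrophage marker promoters, 1 to 9 were marked in H against 3 in C. The counts were 6 to 13 in HH against 4 to 6 in CC_l, and 8 to 16 in HHC against 1 to 8 in CCC. Of 13 lymphocyte marker promoters, 0 to 2 were marked in H against 0 to 1 in C. There the older mice had 0 to 4 in HH against 1 in CC_l, and 2 to 12 in HHC against 0 to 1 in CCC. The part of these differences in the shift was not tested.

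**Figure D5:**
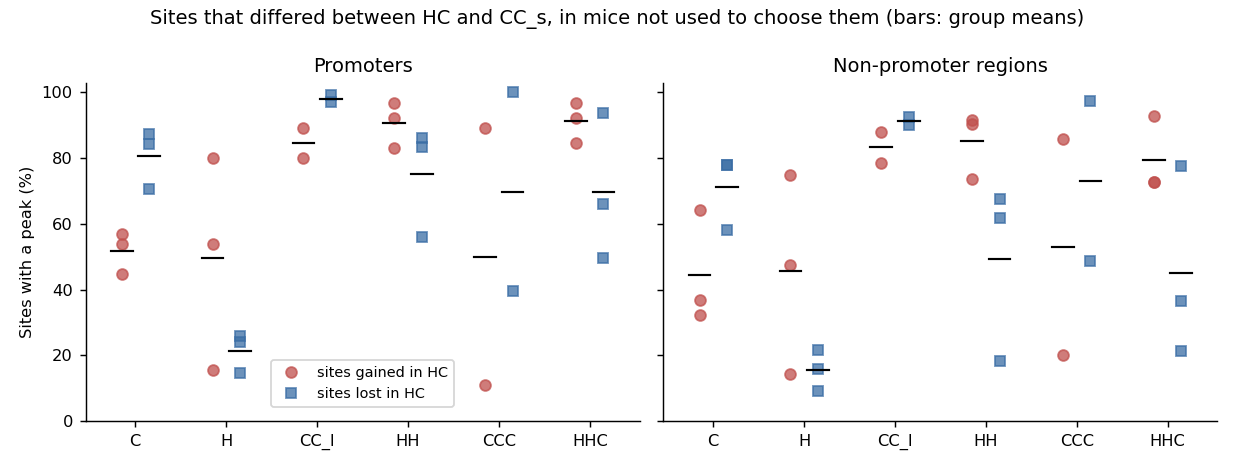
Percentage of the sites gained or lost in HC against CC_s that had a peak in each H3K27ac library of C, H, CC_l, HH, CCC and HHC mice, for promoters (left) and non-promoter regions (right); bars are group means. Lost sites are marked less in every H library (at most 25.7% of promoters) than in any C library.

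Part of the losses was also called in the obese H mice, and fewer in the older mice. Of 109 lost promoters 38 were also lost in H against C, where 423 promoters (1.94%) were lost in all and 176 of the 6078 promoters marked in 2 of 2 CC_s libraries (2.9%). Of 882 lost regions 224 were also lost in H against C, where 1599 of the 23577 regions (6.78%) were lost and 797 of the 6418 marked in 2 of 2 CC_s (12.4%). Adra1d, Tmprss13, Serpina12, Angpt4 and Hoxb3 were among the strongest promoters shared with H, and the regions in Slit3, in Tacc1 and nearest Ccdc171 among the strongest such regions. In HH against CC_l, 6 of the 109 promoters and 145 of the 882 regions were also lost, and in HHC against CCC 2 and 56. The shares of all sites lost in these older mice were not taken. These counts therefore cannot be set against a general rate of loss there. The region nearest Ccdc171 (chr4:83970150-83976419) ranked at percentiles 89 and 85.5 in CC_s. It had a peak in 0 of 3 HC, H, HH and HHC libraries and in every library of C, CC_s, CC_l and CCC.

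Shared gains were rare. The promoter of Pptc7, a mitochondrial phosphatase, was the 1 gained promoter of 65 that was also gained in H against C (32 promoters, 0.146%), at percentiles 46.8, 32.8 and 34.1 in HC, and it was not called with equal peak numbers. A region in Ptgfrn (chr3:101069374-101073315), a prostaglandin receptor regulator, was the 1 of 84 gained regions also gained in H (53 regions, 0.225%). It had 0 of 3 C and 0 of 2 CC_l libraries with a peak and 3 of 3 in H, HC, HH and HHC, and ranked at 30, 40.2 and 48 in HC. The STAT motif was present in 28.1% of the 224 regions lost in both comparisons, 34.3% of the 658 lost in HC alone and 12.1% of the 1375 lost in H alone.

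Peaks of the other marks were counted at the same sites in the same groups of mice, with 3 libraries per group. H3K4me1, a mark of enhancers, was present at 54.3, 43.7 and 11.1% of lost regions in HC and at 54.5, 68.8 and 88.5% in CC_s, and the lowest value was that of HC replicate 3. Over all 23577 regions it was present at 41.5, 38.2 and 26.5% in HC and 31.1, 38.9 and 51.3% in CC_s, which overlapped. The promoter mark H3K4me3 was present at 97.9% ± 0.888 of gained promoters in HC (SD, n = 3) and 93.3% ± 3.2 in CC_s (SD, n = 3), against 54.2% and 49.9% of all promoters, so most gained promoters carried H3K4me3 in both groups. At lost promoters it was present at 63% ± 5.53 in HC and 67% ± 13.2 in CC_s. The repressive mark H3K27me3 was present at 5.5, 7.34 and 26.6% of lost promoters in HC and 8.26, 5.5 and 4.59% in CC_s, again with HC replicate 3 apart. Replicate numbers here are those of each mark's own labels.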

How the data were processed

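Peak lists of CUT&Tag libraries were deposited, 1 list per library. Per the methods and the submitters' processing notes, the authors trimmed reads with Trim Galore 0.6.6, aligned them to mm10 (GRCm38) with Bowtie2 2.4.4, handled the alignments with SAMtools 1.13 and bedtools 2.30 and called peaks with SEACR 1.3 in its stringent mode. A blacklist filter is stated, but every H3K27ac list still held peaks on the mitochondrial sequence, and no peak was removed here. Each of the 6 columns gives a position or a coverage signal, whole-numbered in the deposited lists and not scaled between libraries; read totals are not given, so depth is unknown and no count model or counting interval was used. Libraries were grouped by their labels. Where a label of another mark disagreed on treatment, the title was followed.

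Promoters came from GENCODE mouse release 21 (GRCm38), 2000 bp either side of each protein-coding start, and regions from H3K27ac peaks merged over all libraries. Genes were linked to regions that overlapped them or lay within 20000 bp. Equal peak numbers kept the 15158 highest total signals per library. Motifs were sought in 300 bp of the GRCm38 RefSeq genome, and in RefSeq promoters (250 bases before to 50 after the start) found for 48 of 65 gained and 73 of 109 lost symbols. Tests were exact permutations of library labels, two-sided, threshold 0.05. Scripts ran in Python 3.11.15 with NumPy 2.4.6, pandas 2.3.3 and matplotlib 3.10.9, and were tested on simulated data.

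The text names the first 10 gained and 10 lost promoter loci and the first 6 gained and 6 lost regions called both with all peaks and with equal peak numbers, in order of mean percentile of total signal; at most 4 called members per gene list and direction; at most 6 promoters and 4 regions per direction also called in H against C; and the 10 promoters named by the study. Members and lists were chosen with earlier results of these data known. Alternatives were peak numbers, overlap, window, threshold, region merging, the control set, left-out libraries and a replicate block. Some of the genes and 1 sequence that these rules select are not reported here.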

Additional observations from a re-analysis of the deposited data

Results flagged for a closer look

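At 5 regions every library moved the opposite way in another comparison. The values are the percentage of diet libraries with a peak minus that of control libraries, the difference between the comparisons was not tested, and with so many regions some such patterns can be found by chance. The region nearest Jun, a subunit of AP-1 (chr4:95229036-95235451), was gained in HC (100) but marked in 3 of 3 C and 0 of 3 H libraries. The region nearest Fam53b (chr7:132694368-132701067) was gained in HC (100) with the same counts in C and H. The region nearest Pgrmc2, a haem-binding membrane protein (chr3:41183676-41186859), was lost in HC (-100) but marked in 0 of 3 C and 3 of 3 H. The region nearest Zfp423, a factor of the fat lineage (chr8:87715497-87720625), was lost in HC (-100) and in H but marked in 0 of 2 CC_l and 3 of 3 HH. The region nearest Galnt9 (chr5:110593564-110599765) was lost in HC (-100) but marked in 0 of 2 CCC and 3 of 3 HHC.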

How the results depend on the processing

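The promoter and region shifts in other mice kept their direction and an exact permutation p under 0.05 in every alternative run. Counts of gained promoters, lost promoters, gained regions and lost regions depended more on the setting. Gained promoters numbered 136 with equal peak numbers. An overlap of 500 bp gave 21 gained and 192 lost promoters and 43 gained regions. The C libraries as further controls left 18, 68, 22 and 403. Chosen after seeing the data, equal covered length gave 743, 14, 148 and 25, and equal peak numbers without HC replicate 3 gave 197, 430, 348 and 792. With 1 library left out at a time the counts ranged from 79 to 502, 145 to 485, 113 to 693 and 1165 to 2628, as fewer libraries had to agree, and the shifts from 19 to 45.3 and 32 to 64.3 points. The log2 difference in peak number, 0.19 in all, ranged from -0.15 (without HC replicate 3) to 0.49 and was -0.04 without CC_s replicate 1. The share of peaks at promoters (HC minus CC_s) ranged from 0.095 to 1.19 points, and was -2.72 points with windows of 500 bp (exact permutation p = 0.3); the cause was not tested. The labels share replicate numbers 1 and 2, but the deviations of same-numbered libraries correlated at -0.0573 and 0.0408, so pairing was not established. A replicate block gave 79 gained and 485 lost promoters, 288 gained and 1166 lost regions and -0.15 for log2 peak number (exact permutation p = 0.5), with shifts of 48.2 points (exact permutation p = 0.0156) and 57.2 points (exact permutation p = 0.0312). No named promoter or region reversed in the settings run for them. Calls were lost at 20 promoters and 1 region with equal peak numbers, 25 and 5 with C controls, 17 and 3 with 500 bp of overlap, and 53 and 6 with equal covered length. Depth is unknown, so unmarked sites of libraries with few peaks may lie just under their threshold.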
